A study of Mus musculus with 9 samples.

Results

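The cytochrome P450 genes encode haem enzymes that insert an oxygen atom into their substrates. They were taken here as every gene whose symbol is Cyp followed by a number, a letter and a number, with Cyp51 left out, and they came to 89 of 22180 genes measured in periprostatic fat of mice on 2 diets. In high fat diet 7 of these 89 genes were lower and 4 were higher (12.4% in all, against 21.5% of all genes). The family is dim, with 69 members below the median of all genes, where 6.82% of all genes were called. Of the 7 decreases 6 were in the 9 brightest members. These 9 lay above the upper quartile of all genes, where 18.5% of all genes were lower and 23.6% higher. Of these 6, Cyp2f2 was bright in low fat mice only, so its place there depends on its decrease. Cyp2f2 was 5.97-fold lower, Cyp2c55 2.12-fold on the brighter of its probe sets, Cyp2e1 1.73-fold and Cyp2d22 1.43-fold, whereas Cyp2r1 was 1.51-fold higher and Cyp1b1 1.46-fold. Cyp2c70 and Cyp2c23 also passed as higher, from probe sets so dim that expression above background was not determined.

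Male C57BL/6J mice ate a diet with 60 kcal percent fat (5 mice) or a diet with 10 kcal percent fat (4 mice), starting at 6 weeks of age and lasting 12 weeks, so that all were 18 weeks old when the fat around the prostate was taken. The mice carry no transgene or deletion that the labels name, and each mouse has an array of its own. RNA was read on Affymetrix Mouse Gene 2.0 ST arrays, and the values are log2 brightness of probe sets, groups of probes that stand for a transcript. Tissue of this kind holds many cell types, so fewer cells of a type and less RNA per cell cannot be told apart.

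P450 enzymes of the endoplasmic reticulum draw electrons from the reductase encoded by Por, and those of mitochondria from ferredoxin. Members of the Cyp1, Cyp2 and Cyp3 families are best known from the liver, where they oxidise drugs, toxins and many endogenous compounds. Other members make or break down bile acids, steroid hormones, vitamin D, retinoic acid and the eicosanoids formed from arachidonic acid. Several are induced through the receptors Ahr, Car, Pxr and Ppar alpha when their ligands are present.

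The adipose label was checked on Adipoq, an adipocyte hormone, which lay between 10.99 and 11.28 in high fat mice and between 11.47 and 11.54 in low fat mice, and Plin1, a lipid droplet protein, between 12.26 and 12.51 in high fat mice and between 12.81 and 12.95 in low fat mice. Over 5 smooth muscle markers low fat mouse 2 had a mean log2 value of 11.02, while the remaining low fat mice lay at 8.28 to 8.30. Over 5 skeletal muscle markers high fat mouse 1 had a mean of 8.57, against 6.25 to 7.46 in the low fat mice. Low fat mouse 4 had the highest low fat value in each of these 5 markers. In Myh4, for example, high fat mouse 1 read 8.95 and the other high fat mice 5.15 to 5.23. Low fat mouse 4 read 6.97 there and the other low fat mice 5.09 to 5.24. Of all 22180 genes, 21.5% changed by diet in the limma test used throughout (adjusted p under 0.05), 12.4% of them higher and 9.13% lower in high fat diet as shares of all genes.

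Most of the family was dim, and the levels ran without a gap across the thresholds used to describe it. A P450 gene was called bright where its mean over the 9 arrays lay above 8.64, the upper quartile of all genes, and this held for 9 of 89 genes (10.1%). A further 11 lay between that value and the median of all genes, 6.96, and 69 lay below the median. Probe sets differ in how strongly they bind, so this order describes the arrays and does not rank amounts of transcript. Cyp2f2 was the member nearest above the threshold, with a mean of 8.94, and Cyp4f17 the nearest below, with 8.46. At the median Cyp46a1 lay nearest above, with 6.97, and Cyp4f16 nearest below, with 6.87. No detection calls were used here, so whether the 69 dim members were expressed was not determined.

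The 9 bright members were Cyp2e1, Cyp2c55, Cyp4v3, Cyp27a1, Cyp4b1, Cyp2d22, Cyp20a1, Cyp4f13 and Cyp2f2. In 8 of them every array lay above its own upper quartile, and Cyp2f2 was the exception. The 11 of medium brightness were Cyp4f17, Cyp2u1, Cyp2j6, Cyp4f18, Cyp2s1, Cyp1b1, Cyp39a1, Cyp2r1, Cyp2a22, Cyp2j9 and Cyp46a1. All 2 Cyp1a, 5 Cyp2b and 7 Cyp3a genes, subfamilies known for oxidising drugs in liver, were among the dim ones, whereas the Cyp2c, Cyp2d and Cyp2e subfamilies each had 1 bright member. For Cyp2c that member was Cyp2c55, on the brighter of its probe sets only. Dim too were Cyp7a1, the first enzyme of the classical bile acid pathway, and all 5 members of the steroid hormone families Cyp11, Cyp17 and Cyp21. Cyp19a1 (aromatase) was not analysed here.

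**Figure D1:**
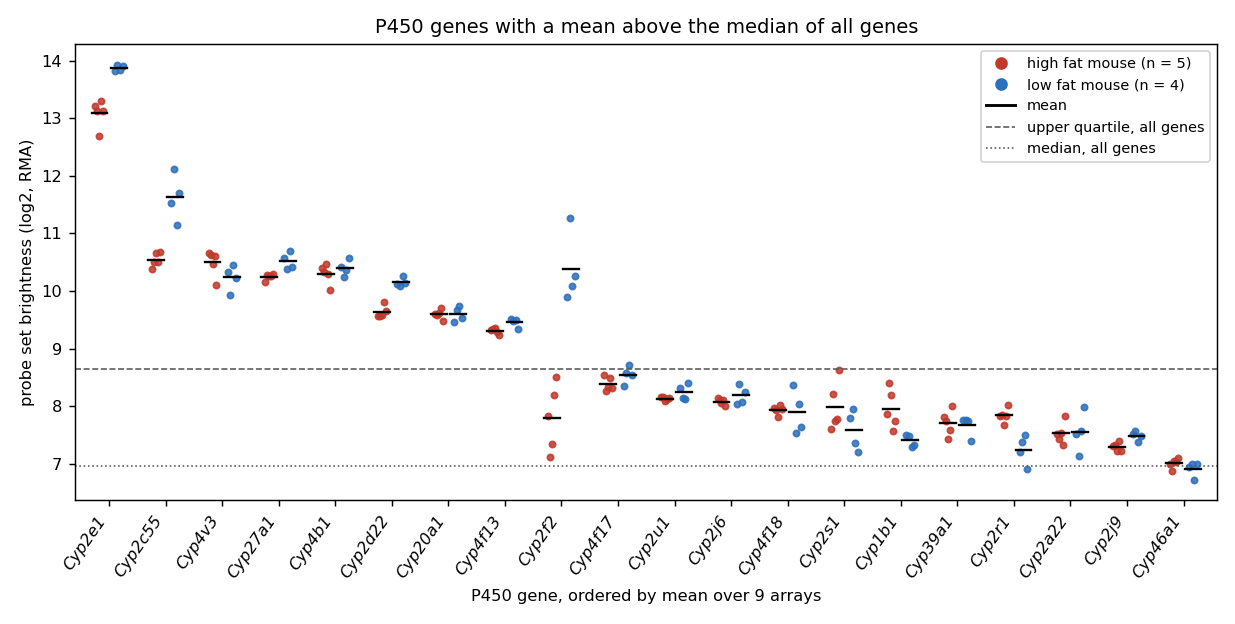
Log2 brightness of the 20 P450 genes with a mean above the median of all genes, ordered by that mean; each point is 1 mouse, high fat (red, n = 5) left of low fat (blue, n = 4), with black bars at the group means and lines at the upper quartile and median of all genes. The diets are apart in Cyp2e1, Cyp2c55, Cyp2d22 and Cyp2f2, and mixed in Cyp4v3, Cyp4b1 and Cyp20a1.

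The calls were counted by brightness. Of the 9 bright members 6 fell and 0 rose, where 42.1% of all genes above the upper quartile were called, 18.5% lower and 23.6% higher. Cyp2f2 is among these 6 only through its low fat mice, so it cannot show that decreases go with brightness. Among the 11 members of medium brightness 2 rose and 1 fell, and among the 69 dim members 2 rose and 0 fell (7 at an unadjusted p under 0.05), where 3.91% of all genes below the median were higher. Over the whole family 12.4% of the genes were called, less than the 21.5% of all genes, but the family is dimmer than most. Above the median of all genes 45.0% of the 20 members were called, against 36.2% of all genes there (20.8% higher and 15.4% lower), and below it 2.90% of members, against 6.82% of all genes. The median difference, high fat minus low fat, was -0.27 over the bright members, -0.02 over the family and -0.001 over all genes. The diets did not overlap in 9 of the 89 members, against 20.7% of all genes. The count of higher members was 2 without low fat mouse 2 or 4, and the count of lower members was 4 without high fat mice 1 and 2 together and 11 with each array centred on its median. The non-overlapping members were 5 lower and 4 higher in high fat diet. All 5 lower ones, Cyp2f2 included, were counted as bright, of 9 bright members, where the diets did not overlap in 41.5% of all genes above the upper quartile. Of the 20 members above the median 7 did not overlap, against 34.6% of all genes there.

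**Figure D2:**
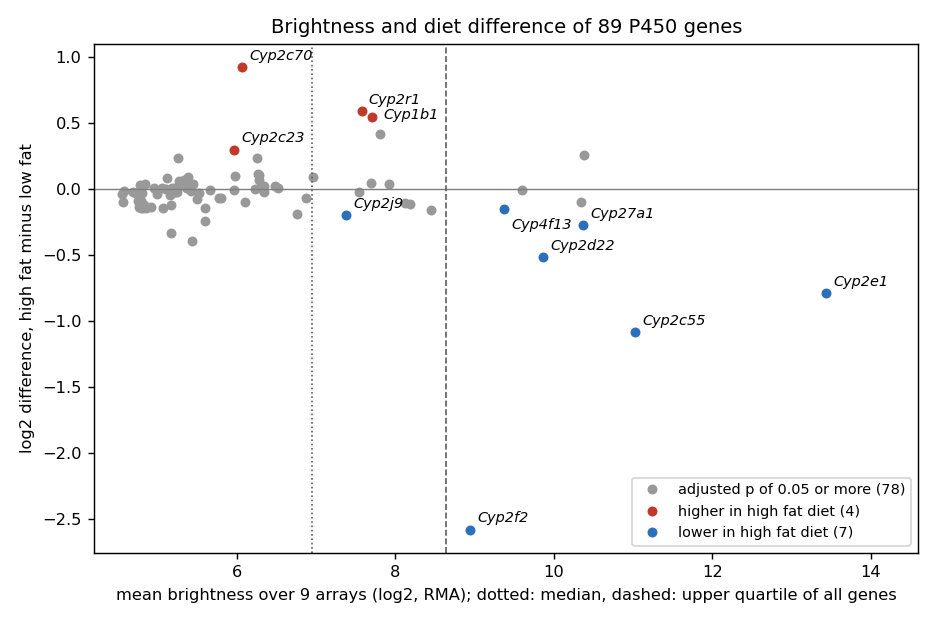
Log2 difference, high fat minus low fat, against mean log2 brightness over 9 arrays for the 89 P450 genes; blue points are the 7 genes lower and red points the 4 genes higher in high fat diet, grey points the 78 that did not pass, and the vertical lines are the median and the upper quartile of all genes. The blue points other than Cyp2j9 lie to the right of the upper quartile and the red points lie to the left of it.

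The promoters of 4 members are shown because they belong to the genes above the median with the largest differences in each direction: Cyp2f2 and Cyp2e1, which fell, and Cyp2r1 and Cyp1b1, which rose. Cyp2c55, whose probe sets differed from each other, was not included. They run from 250 bases before to 50 after the start of the RefSeq gene in GRCm38.p6, at chr7:27119705-27120004 on the plus strand (Cyp2f2), chr7:140763569-140763868 on the plus strand (Cyp2e1), chr7:114562923-114563222 on the minus strand (Cyp2r1) and chr17:79715012-79715311 on the minus strand (Cyp1b1). Each is written 5′ to 3′ along its gene, and capitals mark TATAAA, the letters of a TATA box, GCGTG, the core of the Ahr response element, or AGGTCA, a half-site of nuclear receptors, on either strand.
Cyp2f2: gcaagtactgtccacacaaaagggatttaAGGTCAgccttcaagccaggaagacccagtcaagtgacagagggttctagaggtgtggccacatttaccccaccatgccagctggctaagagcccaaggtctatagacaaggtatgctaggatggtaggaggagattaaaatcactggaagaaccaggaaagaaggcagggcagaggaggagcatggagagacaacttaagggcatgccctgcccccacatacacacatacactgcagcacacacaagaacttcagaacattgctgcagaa
Cyp2e1: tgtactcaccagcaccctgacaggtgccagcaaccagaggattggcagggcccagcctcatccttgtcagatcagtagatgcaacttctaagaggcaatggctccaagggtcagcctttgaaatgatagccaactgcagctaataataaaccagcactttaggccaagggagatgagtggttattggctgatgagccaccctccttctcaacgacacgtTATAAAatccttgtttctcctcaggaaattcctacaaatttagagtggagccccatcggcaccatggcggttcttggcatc
Cyp2r1: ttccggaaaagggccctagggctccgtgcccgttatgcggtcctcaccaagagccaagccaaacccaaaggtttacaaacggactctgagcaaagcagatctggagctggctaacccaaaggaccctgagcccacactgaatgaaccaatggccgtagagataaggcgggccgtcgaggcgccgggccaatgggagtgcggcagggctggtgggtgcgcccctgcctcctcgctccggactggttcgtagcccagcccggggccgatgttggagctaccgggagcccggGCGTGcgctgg
Cyp1b1: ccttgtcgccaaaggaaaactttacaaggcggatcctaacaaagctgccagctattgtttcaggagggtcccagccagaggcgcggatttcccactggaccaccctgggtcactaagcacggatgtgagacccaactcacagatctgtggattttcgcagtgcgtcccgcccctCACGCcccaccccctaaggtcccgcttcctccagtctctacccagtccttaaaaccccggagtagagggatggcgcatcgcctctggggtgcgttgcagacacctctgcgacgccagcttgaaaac
Cyp2f2 held AGGTCA from base -221 and no CpG, a C followed by a G. Cyp2e1 held TATAAA from base -31 and 4 CpG. Cyp2r1 held GCGTG from base 40 and 22 CpG, and Cyp1b1 held GCGTG on the reverse strand, read here as CACGC, from base -76 and 16 CpG. Entries were found for 69 of the 89 genes, with 77 promoters. TATAAA was present in 36.4% of these 77, against 13.6% of all 32851 promoters in the table, AGGTCA in 27.3% against 16.3%, and GCGTG in 20.8% against 32.4%. The median promoter held 2 CpG in the family and 7 in the table. These are matches of letters in short windows, and many of the 77 belong to subfamilies of similar genes.

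Cyp2f2, known in mouse for the oxidation of naphthalene in the club cells of the lung, had the largest difference of the family. Its log2 values were 7.83, 7.12, 7.35, 8.19 and 8.50 in high fat mice, against 9.90, 11.26, 10.09 and 10.25 in low fat mice. Every high fat mouse lay well below every low fat mouse, and the highest low fat value was that of mouse 2. The means were 7.80 ± 0.57 in high fat mice (SD, n = 5) and 10.38 ± 0.61 in low fat mice (SD, n = 4), a log2 difference of -2.58 ± 0.33 (SE, limma adjusted p = 0.000537). Without low fat mouse 2 the difference of Cyp2f2 was -2.28 (limma adjusted p = 0.00117). In the RefSeq order of protein-coding genes Cyp2f2 stands between Cyp2a12 and Cyp2t4, and these neighbours did not pass. Cyp2a12 averaged 5.01 ± 0.09 in high fat mice and 5.15 ± 0.09 in low fat mice, and Cyp2t4 5.30 ± 0.08 in high fat mice and 5.24 ± 0.07 in low fat mice (SD, n = 5 and 4).

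Cyp2e1, which oxidises ethanol, acetone and many small solvents, was the brightest member in this depot. It read 13.21, 13.12, 12.68, 13.29 and 13.12 in high fat mice, against 13.82, 13.93, 13.83 and 13.91 in low fat mice. The low fat mice lay close together, and all high fat mice lay below them, with high fat mouse 3 lowest. The difference was -0.79 ± 0.11 (SE, limma adjusted p = 0.000695), from means of 13.08 ± 0.24 in high fat mice (SD, n = 5) and 13.87 ± 0.06 in low fat mice (SD, n = 4). These values approach the top of the scale, 14.22 in this table, and whether the probes were near saturation was not determined.

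Cyp2d22, of the Cyp2d subfamily that in human holds the drug-metabolising CYP2D enzyme, had values of 9.57, 9.57, 9.58, 9.82 and 9.65 in high fat mice, against 10.12, 10.08, 10.26 and 10.14 in low fat mice. The diets did not overlap and each was narrow, with means of 9.64 ± 0.11 in high fat mice (SD, n = 5) and 10.15 ± 0.08 in low fat mice (SD, n = 4). The log2 difference of -0.51 ± 0.06 (SE) gave a limma adjusted p of 0.000392. The other 8 Cyp2d genes were all dim and 0 of them passed, with 0 at an unadjusted p under 0.05. Of all genes below the median 6.82% were called. Cyp2d11, the next gene along the chromosome, averaged 4.75 ± 0.04 in high fat mice and 4.80 ± 0.16 in low fat mice (SD, n = 5 and 4).

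Cyp2c55, which acts on arachidonic acid, was called lower on a probe set whose reading a second one did not share. The brighter set gave 10.37, 10.50, 10.66, 10.50 and 10.67 in high fat mice, against 11.52, 12.11, 11.15 and 11.71 in low fat mice, a difference of -1.08 ± 0.16 (SE, limma adjusted p = 0.00108). The dimmer set of the same symbol gave 4.99, 4.97, 5.10, 5.02 and 5.04 in high fat mice, against 5.37, 4.92, 5.09 and 5.02 in low fat mice. There the diets overlapped and the difference was -0.08 (limma adjusted p = 0.599 over all 33793 rows of the table). Which of these sets reports the transcript, and which strand each of them reads, was not tested. Both the brightness and the decrease of Cyp2c55 therefore hold for the brighter probe set alone.

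Of the 89 members 4 had a second probe set. For Cyp2f2 the dimmer set gave 6.41, 6.24, 6.08, 6.45 and 6.32 in high fat mice, against 6.89, 7.50, 6.94 and 6.88 in low fat mice. The diets again did not overlap, low fat mouse 2 was again highest, and the difference was -0.75 (limma adjusted p = 0.00463 over all rows), smaller than the -2.58 of the brighter set. Cyp2c29 and Cyp11a1 were dim on each of their sets. The dimmer set of Cyp2c29, singled out after its values were seen, averaged 4.82 ± 0.06 in high fat mice and 5.10 ± 0.15 in low fat mice (SD, n = 5 and 4; limma adjusted p = 0.0269 over all rows), whereas the brighter one averaged 4.96 ± 0.06 and 4.95 ± 0.02.

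**Figure D3:**
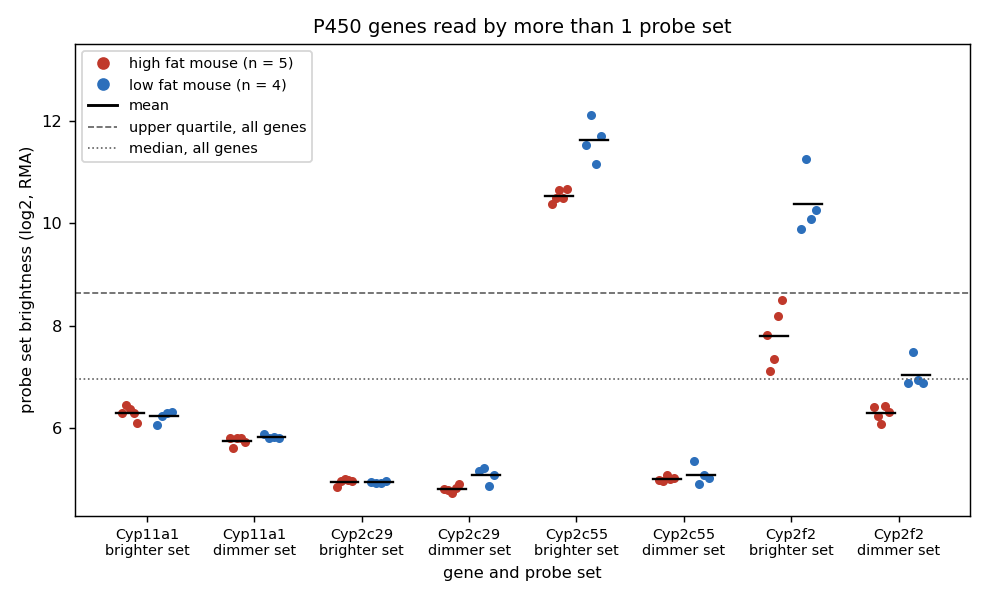
Log2 brightness of each probe set for the 4 P450 genes that have 2; each point is 1 mouse, high fat (red, n = 5) left of low fat (blue, n = 4), with black bars at the group means and lines at the upper quartile and median of all genes. The 2 sets of Cyp2f2 both lie lower in high fat mice, while those of Cyp2c55 differ in level and only the brighter one separates the diets.

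In the sterol and bile acid families Cyp7, Cyp8, Cyp39 and Cyp46, together with Cyp27a1, 1 of 6 members fell and 0 rose (2 at an unadjusted p under 0.05 in either direction). That is 16.7% called, where 21.5% of all genes were called and 9.13% were lower. Cyp2c70, which also acts on bile acids, was counted with the rest of its subfamily and is described below. Cyp27a1, the mitochondrial sterol 27-hydroxylase, gave 10.15, 10.28, 10.25, 10.25 and 10.30 in high fat mice, against 10.58, 10.39, 10.69 and 10.41 in low fat mice. The diets were apart by a narrow gap, with a difference of -0.27 ± 0.07 (SE, limma adjusted p = 0.0165). Without high fat mice 1 and 2 together, in a fit with fewer mice, the difference of Cyp27a1 no longer passed. The arrays of these mice had the highest upper quartiles (8.70 and 8.71), and whether that bears on the call was not tested. Over all alternatives the difference of Cyp27a1 lay between -0.31 and -0.21. The other enzymes, with their means, were Cyp39a1, an oxysterol 7-alpha hydroxylase (7.71 ± 0.22 in high fat mice and 7.67 ± 0.18 in low fat mice), and Cyp46a1, the cholesterol 24-hydroxylase known from brain (7.01 ± 0.08 and 6.92 ± 0.13), neither of which passed, and the dim genes Cyp7a1, Cyp7b1 and Cyp8b1 (SD, n = 5 and 4).

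In the fatty acid and eicosanoid families Cyp2j, Cyp2u and Cyp4, 2 of 23 members (8.70%) fell, by small amounts, and 0 rose, a share near the 9.13% of all genes that were lower. Cyp4f13, of the Cyp4f subfamily of fatty acid and eicosanoid hydroxylases, gave 9.32, 9.34, 9.35, 9.28 and 9.24 in high fat mice, against 9.51, 9.49, 9.50 and 9.34 in low fat mice. Its diets overlapped at low fat mouse 4, and the difference of -0.15 ± 0.05 (SE) had a limma adjusted p of 0.0491, close to the threshold. Leaving out any 1 mouse other than low fat mouse 4 ended the call of Cyp4f13. Cyp2j9, an arachidonic acid oxidase known from mouse brain, gave 7.30, 7.32, 7.22, 7.39 and 7.22 in high fat mice, against 7.51, 7.57, 7.38 and 7.49 in low fat mice. The diets met at high fat mouse 4 and low fat mouse 3, with a difference of -0.19 ± 0.05 (SE, limma adjusted p = 0.0277). That call too was lost without high fat mouse 3 or 5 or low fat mouse 1, 2 or 4. Weighting the arrays by their quality ended the calls of Cyp4f13 (limma adjusted p = 0.0596) and Cyp2j9 (limma adjusted p = 0.0538). For Cyp4f13 so did fitting all rows or a variance trend.

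The other bright members of the fatty acid group did not pass. Cyp4b1, a hydroxylase of fatty acids and some toxins, gave 10.40, 10.33, 10.47, 10.29 and 10.02 in high fat mice, against 10.42, 10.25, 10.37 and 10.57 in low fat mice. The diets overlapped, with a difference of -0.10 and a 95% confidence interval of -0.30 to 0.11. Cyp4v3, the mouse gene related to the human fatty acid hydroxylase CYP4V2, gave 10.66, 10.62, 10.47, 10.61 and 10.11 in high fat mice, against 10.33, 9.93, 10.45 and 10.23 in low fat mice. Here 4 high fat mice lay above all low fat mice and mouse 5 lay among them, with a difference of 0.26 (interval -0.03 to 0.55, limma adjusted p = 0.206). Without high fat mouse 5 the difference of Cyp4v3 was 0.36 and passed (limma adjusted p = 0.0423). Cyp20a1, an enzyme whose substrate is not settled, averaged 9.60 ± 0.08 in high fat mice (SD, n = 5) and 9.60 ± 0.13 in low fat mice (SD, n = 4), and its difference of -0.01 had an interval of -0.15 to 0.14.

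Members of medium brightness that act on fatty acids also did not pass. Cyp4f17 averaged 8.39 ± 0.12 in high fat mice and 8.54 ± 0.15 in low fat mice, Cyp2u1 8.13 ± 0.03 and 8.25 ± 0.14, and Cyp2j6 8.08 ± 0.05 and 8.19 ± 0.15 (SD, n = 5 and 4). Cyp4f18, a leukotriene hydroxylase of mouse neutrophils, averaged 7.94 ± 0.08 in high fat mice and 7.90 ± 0.38 in low fat mice, with low fat values from 7.54 to 8.37. The interval of its difference ran from -0.29 to 0.37.

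The 4 genes that rose lay at lower brightness. Cyp1b1, an Ahr target that hydroxylates estrogens and foreign aromatic compounds, gave 7.86, 8.40, 8.19, 7.57 and 7.74 in high fat mice, against 7.51, 7.49, 7.30 and 7.33 in low fat mice. The high fat mice were spread widely and the lowest of them, mouse 4, lay just above the highest low fat mouse. The difference was 0.55 ± 0.15 (SE, limma adjusted p = 0.0301), and the call of Cyp1b1 was lost without high fat mouse 3 or low fat mouse 2, 3 or 4. The other Cyp1 genes, Cyp1a1 (6.50 ± 0.08 in high fat mice and 6.48 ± 0.02 in low fat mice) and Cyp1a2 (5.75 ± 0.12 and 5.81 ± 0.08), were dim and did not pass (SD, n = 5 and 4). Ahr itself averaged 8.26 ± 0.05 in high fat mice and 8.33 ± 0.09 in low fat mice and did not pass either.

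Cyp2r1, a vitamin D 25-hydroxylase, was higher in every high fat mouse. It gave 7.83, 7.85, 7.68, 7.82 and 8.01 in high fat mice, against 7.20, 7.38, 7.50 and 6.91 in low fat mice, a difference of 0.59 ± 0.11 (SE, limma adjusted p = 0.00408). It kept its call without any 1 mouse. The other 5 members of the vitamin D and retinoic acid group, Cyp24a1, Cyp26a1, Cyp26b1, Cyp26c1 and Cyp27b1, were dim and 0 of them passed (0 at an unadjusted p under 0.05). With Cyp2r1, 16.7% of the group was called, against 21.5% of all genes.

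Cyp2c70, which in mouse liver hydroxylates bile acids to muricholic acids, had the largest positive difference, on a dim probe set. It gave 6.43, 6.60, 6.55, 6.28 and 6.52 in high fat mice, against 5.77, 5.34, 5.56 and 5.54 in low fat mice. The diets were widely apart, and the difference was 0.93 ± 0.09 (SE, limma adjusted p = 0.000139). Cyp2c23, an arachidonic acid epoxygenase known from kidney, gave 6.08, 6.04, 6.02, 5.99 and 6.36 in high fat mice, against 5.80, 5.77, 5.92 and 5.70 in low fat mice, a difference of 0.30 ± 0.08 (SE, limma adjusted p = 0.0222). Its diets came within a small distance of each other, and the call of Cyp2c23 was lost without low fat mouse 2 or 4. Both genes lay below the median of all genes in each diet, so whether either was above background was not determined.

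**Figure D4:**
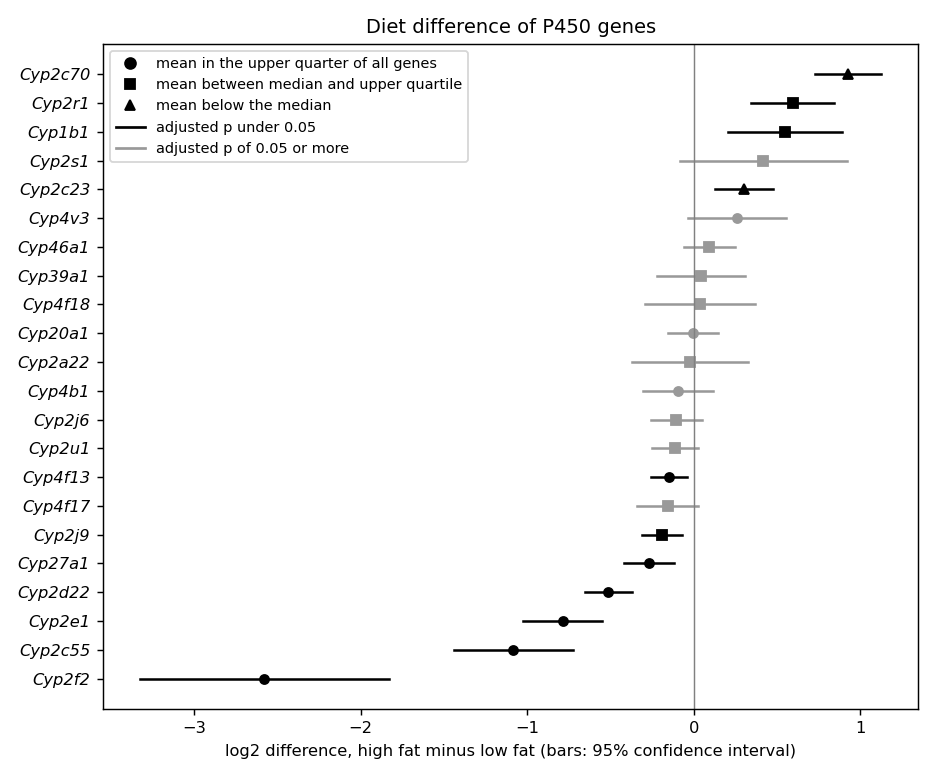
Log2 difference, high fat minus low fat, with its 95% confidence interval for the 20 P450 genes above the median of all genes and for Cyp2c70 and Cyp2c23; black marks passed an adjusted p of 0.05, grey marks did not, and the shape gives brightness. The interval of Cyp2f2 runs from -3.32 to -1.83 and that of Cyp2c70 from 0.73 to 1.13.

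Similar copies limit how far these readings can be given to single genes. The Cyp2c subfamily has 14 members here, Cyp2d and Cyp4f 9 each, Cyp2j and Cyp3a 7 each, Cyp2b 5 and Cyp2a 4, and probes of such copies can share signal. In Cyp2c 3 of 14 were called, 2 higher and 1 lower, a share of 21.4% that lay near the 21.5% of all genes, and in Cyp2d, Cyp4f and Cyp2j 1 each. In Cyp3a, Cyp2b and Cyp2a 0 were called (1, 0 and 2 at an unadjusted p under 0.05). A further 14 rows carry other P450 symbols, several symbols or pseudogenes, such as those shared among Cyp3a genes, and their values lay between 4.60 and 7.10 on all arrays. Cyp2e1, Cyp2f2, Cyp27a1, Cyp1b1, Cyp2r1 and Cyp20a1 are the only members of their subfamilies on this list, and the bright single members Cyp4b1 and Cyp4v3 are too.

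The 78 members that did not pass had differences between -0.39 and 0.42. Cyp2s1 had the highest of these, at 7.99 ± 0.42 in high fat mice and 7.58 ± 0.35 in low fat mice, and Cyp2b19 the lowest, at 5.26 ± 0.15 in high fat mice and 5.65 ± 0.86 in low fat mice (SD, n = 5 and 4). In Cyp2b19 low fat mouse 3 lay at 6.94 and the other 3 low fat mice between 5.20 and 5.26. Cyp2c38 came closest to the threshold (difference -0.33, limma adjusted p = 0.0661), followed by Cyp8b1, the sterol 12-alpha hydroxylase (difference 0.23, limma adjusted p = 0.0905).

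Markers of cell types moved with diet beside these genes. Of 6 adipocyte markers 4 fell and 1, Lep, rose, and the list's mean log2 value was 12.58 to 12.75 in high fat mice and 12.77 to 12.82 in low fat mice. All 5 macrophage markers rose, with list means of 11.42 to 12.00 in high fat mice and 10.27 to 10.64 in low fat mice, and 2 of 5 fibroblast markers rose. Every marker on these lists lay above the upper quartile of all genes, where 42.1% of all genes were called, so the 40.0% of fibroblast markers was near that share. Over all 49 markers measured, the muscle lists included, 30.6% were called, against 21.5% of all genes. Of 9 hepatocyte markers 1 fell, Alb, and 2 rose, Ttr and Hpx, and the list's mean was 6.23 to 6.29 in high fat mice and 6.43 to 6.49 in low fat mice. The gap between these list means rests on Alb, with a difference of -2.01, while the median difference of the list was -0.006. Alb averaged 7.17 ± 0.18 in high fat mice and 9.18 ± 0.15 in low fat mice (SD, n = 5 and 4), while the other 8 lay below 6.96 on every array. Of 6 prostate and seminal vesicle markers 0 passed, likewise 0 of 5 mesothelial and 0 of 3 steroidogenic markers. The part of these cell types in the P450 differences was not tested.

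Genes that work with or beside the P450 enzymes were followed on 8 lists, of which 125 of 142 genes were measured. The lists were chosen with earlier results of these data known. Their shares of called genes therefore describe the lists and are not a test against all genes. Of these 125, 19 rose and 37 fell in high fat diet (44.8%, against 21.5% of all genes), and 64 of the 125 lay above the upper quartile of all genes. Above that quartile 42.1% of all genes were called, 23.6% higher and 18.5% lower. Above the median, where 92 of the 125 lay, 36.2% of all genes were called. Among genes of electron supply and haem, 3 of 10 fell and 1 rose (40.0% in all, with 9 of the 10 above the upper quartile). Hmox1, which degrades haem, was 2.89-fold higher, whereas Pgrmc1, a membrane protein that binds P450 enzymes, was 1.39-fold lower, Fech, which makes haem, 1.12-fold lower, and Cyb5a, a P450 electron donor, had a difference of -0.22. Por was not among the 10 genes measured on this list. The ferredoxin gene Fdx1 had a difference of -0.22 and did not pass (limma adjusted p = 0.0816). Among receptors and regulators 5 of 19 fell, with the smallest p in Cebpa (1.51-fold lower) and the glucocorticoid receptor gene Nr3c1 (1.37-fold), and 2 rose, the retinoic acid receptor gene Rara (1.25-fold higher) and the vitamin D receptor gene Vdr (1.22-fold). In all 36.8% of these 19 genes were called, and 6 of the 19 lay above the upper quartile.

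On the conjugation list 11 of 24 genes fell, with the smallest p in the glutathione transferase genes Gstt1 (1.91-fold lower) and Gstt3 (1.49-fold), and 2 rose, Gclm (1.23-fold higher) and Gsto1 (1.42-fold). On the list of other oxidation and reduction enzymes 11 of 24 fell, with the smallest p in the flavin monooxygenase gene Fmo5 (1.82-fold lower) and the aldehyde dehydrogenase gene Aldh2 (1.69-fold), and 3 rose, among them Maoa (2.10-fold higher) and the epoxide hydrolase gene Ephx1 (1.56-fold). The median difference was -0.22 on the conjugation list and -0.23 on the other. On these lists 54.2% and 58.3% of genes were called, against 21.5% of all genes, and 16 and 15 genes lay above the upper quartile. There 42.1% of all genes were called, 18.5% lower and 23.6% higher.

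On the list of eicosanoid synthesis 6 of 14 genes rose and 2 fell. The list holds Tbxas1, the thromboxane synthase gene (1.88-fold higher), and Ptgis, the prostacyclin synthase gene, which did not pass. Both encode P450 enzymes, but their symbols lie outside the rule for the 89 members. Hpgds, a prostaglandin D synthase, was 4.93-fold higher and the leukotriene C4 synthase gene Ltc4s 1.58-fold higher, while Ptges, a prostaglandin E synthase, was 1.81-fold lower and Alox12 1.15-fold lower. Of 13 retinoid and vitamin D genes 2 fell, Rbp4 (1.35-fold lower) and Rdh10 (1.25-fold), and 1 rose, Rdh11 (1.14-fold higher). Of 10 genes on the steroid hormone list 2 fell, Hsd11b1 (1.53-fold lower), which regenerates active glucocorticoid, and Hsd3b7 (1.50-fold), which acts on sterols of bile acid synthesis and not on steroid hormones, and 2 rose, Srd5a3 (1.27-fold higher) and Hsd17b7 (1.31-fold). Of 12 oxysterol and bile acid genes 2 fell, Hsd3b7, which is on both lists, and Amacr (1.41-fold lower), and 2 rose, the sterol exporter gene Abcg1 (1.92-fold higher) and Osbpl3 (1.31-fold). On the eicosanoid, retinoid, steroid hormone and oxysterol lists 57.1%, 23.1%, 40.0% and 33.3% of genes were called, against 21.5% of all genes. Their genes above the upper quartile numbered 8, 3, 5 and 3, and there 42.1% of all genes were called.

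**Figure D5:**
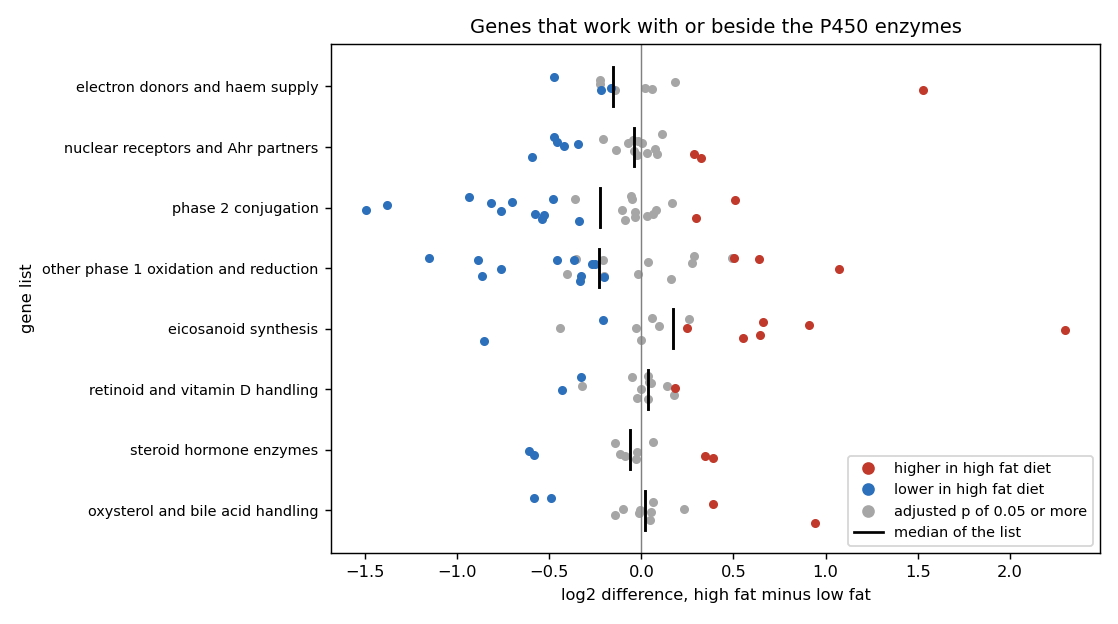
Log2 difference, high fat minus low fat, of the genes on 8 lists of P450 partners, regulators and neighbouring enzymes; each point is 1 gene, red where higher and blue where lower in high fat diet, grey where it did not pass, and black bars are list medians. Most coloured points of the conjugation list lie left of 0 and most of the eicosanoid list right of it.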

How the data were processed

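Log2 expression values were deposited for 9 arrays, 1 mouse each, and the authors made them with RMA, which corrects background, normalizes by quantiles and summarises probe sets, per the submitters' processing notes. Those notes also list limma and R 3.5.0. For the chip annotation, row filters and batches, nothing is given in the sources used here. Rows with exactly 1 symbol in the platform table (23521 of 33793) were used, and the row with the highest mean over 9 arrays was kept for each gene.

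Diet was tested over all 22180 genes with limma 3.58.1 (lmFit and eBayes) in R 4.3.3, with Benjamini-Hochberg adjustment and a threshold of 0.05, and the procedure was tested on simulated data. Differences are high fat minus low fat. Arrays carry no depth, and their number limits the precision. Symbols, gene order and promoters came from RefSeq tables of GRCm38.p6. The named genes were every P450 gene that passed or was bright, and on each companion list the 2 genes with the smallest p in each direction among those that passed. The members and lists were chosen with earlier results of these data known. Alternatives covered scaling, dim genes, probe choice, all rows, variance models, array weights, the mouse number, thresholds and left-out mice.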

Additional observations from a re-analysis of the deposited data

Results flagged for a closer look

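The P450 genes that passed or were bright were searched, diet by diet, for a mouse far from the rest of its group, which chance alone gives in about 5% of groups. Of 30 groups looked at 4 were flagged, 1 of them in Cyp2b19. High fat mouse 3 had the lowest Cyp2e1 value, 12.68, and the rest of its group lay at 13.12 to 13.29. High fat mouse 5 had the highest Cyp2c23 value, 6.36, and the rest lay at 5.99 to 6.08. Low fat mouse 4 had the lowest Cyp4f13 value, 9.34, and the rest of its group lay at 9.49 to 9.51. Cyp2b19 was added because of its difference, which the same value makes, so it stands outside that rate. In it low fat mouse 3 had the highest value, 6.94, and the rest lay at 5.20 to 5.26. The reason for these values was not tested.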

How the results depend on the processing

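Of the 14 named P450 genes, Cyp2e1, Cyp2d22, Cyp2f2 and Cyp2c70 kept their calls under every alternative that tested them, Cyp2c55 under all but the dimmer probe set, and Cyp2r1 lost its call only with a fold threshold of 0.25 (log2). The count of members higher, 4, was 2 with dim genes left out, which removes Cyp2c70 and Cyp2c23, 1 with the fold threshold, 2 without high fat mice 1 and 2 together, and 2 to 5 without 1 mouse each, with 2 in the absence of low fat mouse 2 or 4. The count lower, 7, was 11 with arrays centred on their medians, 4 with the fold threshold, 4 without high fat mice 1 and 2 together, and 5 to 7 without 1 mouse each. Members whose diets did not overlap, 9, came to 18 with centred arrays and 9 to 13 without 1 mouse each. Genes of the companion lists, 19 higher and 37 lower, came to 8 and 18 with the fold threshold and to 16 to 19 and 32 to 38 without 1 mouse each. Bright members, 9, were 20 with the median as threshold and 9 without any 1 mouse. The difference of Cyp20a1, near 0, turned to 0.023 with the mouse number as a replicate block and 0.014 without high fat mouse 1 and low fat mouse 2 together, and ran from -0.055 to 0.041 without 1 mouse each. With the mean of the probe sets Cyp2f2 was at -1.66 and Cyp2c55 at -0.58. The dimmer probe sets, an alternative chosen after seeing the data, gave -0.75 for Cyp2f2 and -0.08 for Cyp2c55. The mouse number as a replicate block gave 4 members higher and 6 lower, with Cyp2c38 gained and without Cyp4f13 (adjusted p = 0.115) and Cyp2j9 (adjusted p = 0.0579), and leaves out high fat mouse 5. Same-numbered mice of the 2 diets (4 pairs) had correlations of their deviations between 0.05 and 0.13, all positive, while mice of different numbers had -0.16 to 0.16. Of 9 arrays 3 correlated best with their own number, both mice numbered 2 among them, and high fat mouse 5 had no partner to match. The titles do not pair the mice either, so the numbers were not taken as pairs. Except where named, the cause of these changes was not tested. Without detection calls, signal over background limits what can be said of the 69 dim members.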
